A study of Mus musculus with 29 samples.

Results

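The genes of the cytosolic ribosomal proteins were followed through the digit tips of mice after nerve injury and amputation. Members were all genes named Rpl or Rps with a number, together with Rpsa, Rplp0, Rplp1 and Rplp2, without the Rps6k kinases and without pseudogenes named with -ps. Of 93 such names in either count table, 83 had a mean of at least 10 CPM (counts scaled to a common library total) in both tables and were kept, 34 with small subunit names and 49 with large subunit names. They were read out of 24411 gene symbols in the time course table and 55487 gene identifiers in the amputation table.

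The data are raw counts per gene from poly(A) RNA-seq of left hindlimb digit tissue, taken without the nail. Spared nerve injury (SNI) cut 2 branches of the sciatic nerve, the tibial and the common peroneal, which leaves the sural branch whole, and sham animals had the same operation with the nerve left whole. The time course table holds 17 libraries from digits amputated through the third phalanx 5 days after surgery, taken 7, 14 or 21 days after amputation, with 3 libraries in each group except sham at day 21, which has 2. The libraries are called biological replicates in the labels. The amputation table holds 12 libraries that all carry SNI, from unamputated and amputated digits at day 7 and day 14, with 3 in each group. It has no sham group, so the amputation comparison is one within nerve-injured animals. The unamputated libraries carry a time after amputation in their labels and were placed by their treatment label. Strain, age and sex are not in the labels used here. Totals ran from 31274200 to 56809400 counts per library, rounded to 6 digits. Keratinocyte genes were abundant in every library, with Krt14 between 3463 and 9470 CPM in the time course table and between 3780 and 5279 CPM in the amputation table. In whole tissue, more cells with a high ribosome content and more ribosomal protein mRNA per cell cannot be told apart.

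The cytosolic ribosome translates mRNA with a small subunit, which reads the message, and a large subunit, which joins amino acids. Each subunit is built in the nucleolus from ribosomal RNA and single copies of most ribosomal proteins, so the genes of these proteins are expressed in proportion to each other. Their mRNAs are short and abundant and start with a cytosine followed by pyrimidines, the 5′ terminal oligopyrimidine (TOP) tract, through which mTOR and Larp1 control their translation and stability. Fau also encodes a ribosomal protein, fused to a ubiquitin-like protein, but lies outside the naming rule. The rule in turn takes in Rps19bp1, which encodes a nucleolar protein that binds Rps19 and is no subunit, and the paralogs Rpl7l1, Rps4l, Rps27l, Rpl22l1 and Rpl36al.

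RefSeq promoter windows (GRCm38.p6) were found for 62 of the 83 members. A tract of C followed by at least 4 pyrimidines began exactly at the annotated start in 13 of them (21.0%), against 3.01% of 27025 genes in the table, and within 10 bases of the start in 36 (58.1% against 34.4%). The letters CCGGAAG, the core of an ETS factor motif, stood on either strand of the 300-base window in 25 members (40.3% against 9.93%), and AAGATGGC, the core of the YY1 motif, in 6 (9.68% against 3.19%); both could share the letters AAG. The sequences below run from 20 bases before the start to 20 bases from it, 5′ to 3′ on the gene's strand, with the tract in capitals. The first 5 show the start tract of subunit genes, and Rps27l has its tract 1 base on. The last 3, from paralogs or relatives not called after amputation, have none within 10 bases. Some subunit genes that were called higher over both days, such as Rplp0, Rps16 and Rpl5, also have none within 10 bases and are not shown.
Rps6, chr4:86857348-86857387, minus strand: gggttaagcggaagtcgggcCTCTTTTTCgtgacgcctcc
Rps18, chr17:33955646-33955685, minus strand: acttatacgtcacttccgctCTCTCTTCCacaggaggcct
Rps27, chr3:90213629-90213668, minus strand: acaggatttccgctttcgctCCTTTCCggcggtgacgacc
Rpl38, chr11:114668560-114668599, plus strand: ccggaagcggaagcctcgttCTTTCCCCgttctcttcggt
Rplp2, chr7:141447631-141447670, plus strand: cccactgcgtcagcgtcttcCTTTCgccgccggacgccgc
Rps27l, chr9:66946066-66946105, plus strand: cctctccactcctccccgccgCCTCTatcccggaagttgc
Rpl36al, chr12:69184048-69184087, minus strand: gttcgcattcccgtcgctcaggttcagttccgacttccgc
Rpl7l1, chr17:46782637-46782676, minus strand: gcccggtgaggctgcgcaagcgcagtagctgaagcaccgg
Rps19bp1, chr15:80264287-80264326, minus strand: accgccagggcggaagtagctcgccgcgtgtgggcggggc
Members with and without the tract at the start had like median changes. In amputated against unamputated digits the median log2 fold change was 0.32 for the 13 genes with the tract at the start and 0.32 for the 49 with a listed start and no tract at it, and at day 7 of SNI against sham these medians were 1.28 and 1.26.

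Levels between genes were compared as mean CPM per kilobase of annotated transcript. Rplp1 and Rplp0 were the highest members in both tables. They encode proteins of the P stalk, the part of the large subunit that recruits the translation factors. Rplp1 stood at 4934 CPM per kilobase in the time course table and 2805 in the amputation table, and Rplp0 at 4077 and 2190. Rps12 followed (3643 and 2174). Rpl13a (3408 and 1821), Rps18 (3369 in the time course table) and Rps27 (1853 in the amputation table) completed the highest 5 of each table. The lowest were Rps19bp1 (21.3 and 16.5), Rps4l (30.3 and 25.1), Rpl7l1 (49.1 and 36.3) and Rps27l (204 and 115). Rps15a appeared at 93.9 and 83.7 because its annotated transcript length was 5130 bases, against a median of 774 for the members, and the length of 3706 bases for Rps20 was also high, so CPM per kilobase understates both.

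In each of the following paralog pairs the gene without a suffix had the higher level. Rpl3l, a form found in heart and skeletal muscle, had a mean of 0.0432 CPM in the time course table beside 1991 for Rpl3. Rpl39l, known from testis, had 1.05 CPM beside 598 for Rpl39. The testis form Rpl10l had 0.0015 CPM beside 1078 for Rpl10. Rps27l was at 110 CPM beside 1039 for Rps27, Rpl22l1 at 126 beside 570 for Rpl22, Rpl36al at 278 beside 492 for Rpl36a, Rpl7l1 at 96.1 beside 1709 for Rpl7, and Rps4l at 26.2 beside 2177 for Rps4x. These pairs were read in CPM, which is not adjusted for length, and near-identical copies can trade reads in the authors' counting. The names just under the threshold were Rps3a2 (8.88 CPM in the amputation table) and Rpl37rt, a retrocopy of Rpl37. In the time course table Rpl37rt, at 313 CPM, stood above Rpl37, at 279, and in the amputation table it was at 6.30 beside 397 for Rpl37. Rps27rt, another retrocopy, had 1.77 and 4.32. The lowest members kept were Rps19bp1 (17.8 and 13.8), Rps4l (26.2 and 21.7) and Rpl7l1 (96.1 and 71.1).

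The share of all counts that the 83 genes held varied widely within the groups of the time course. In sham digits it was 5.64, 7.39 and 8.44% at day 7, 5.38, 6.44 and 5.86% at day 14, and 24.0 and 6.76% at day 21. In SNI digits it was 9.26, 20.1 and 12.6% at day 7, 5.77, 11.0 and 12.9% at day 14, and 7.91, 12.6 and 16.1% at day 21. The highest and lowest libraries thus differed 4.46-fold, and sham replicate 1 at day 21 stood above every SNI library. In the amputation table the shares were close within groups, except in amputated digits at day 14 (6.48 to 8.51%). Unamputated digits had 5.31, 5.48 and 5.92% at day 7 and 5.85, 5.62 and 5.56% at day 14. Amputated digits had 7.04, 6.70 and 6.74% at day 7 and 6.48, 8.51 and 6.86% at day 14. All 6 amputated libraries lay above all 6 unamputated ones. SNI digits at day 7 after amputation are in both tables, at 9.26 to 20.1% in the first and 6.70 to 7.04% in the second. Those at day 14 are also in both, with overlapping ranges of 5.77 to 12.9% and 6.48 to 8.51%. The tables were made apart, with different gene sets.

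**Figure D1:**
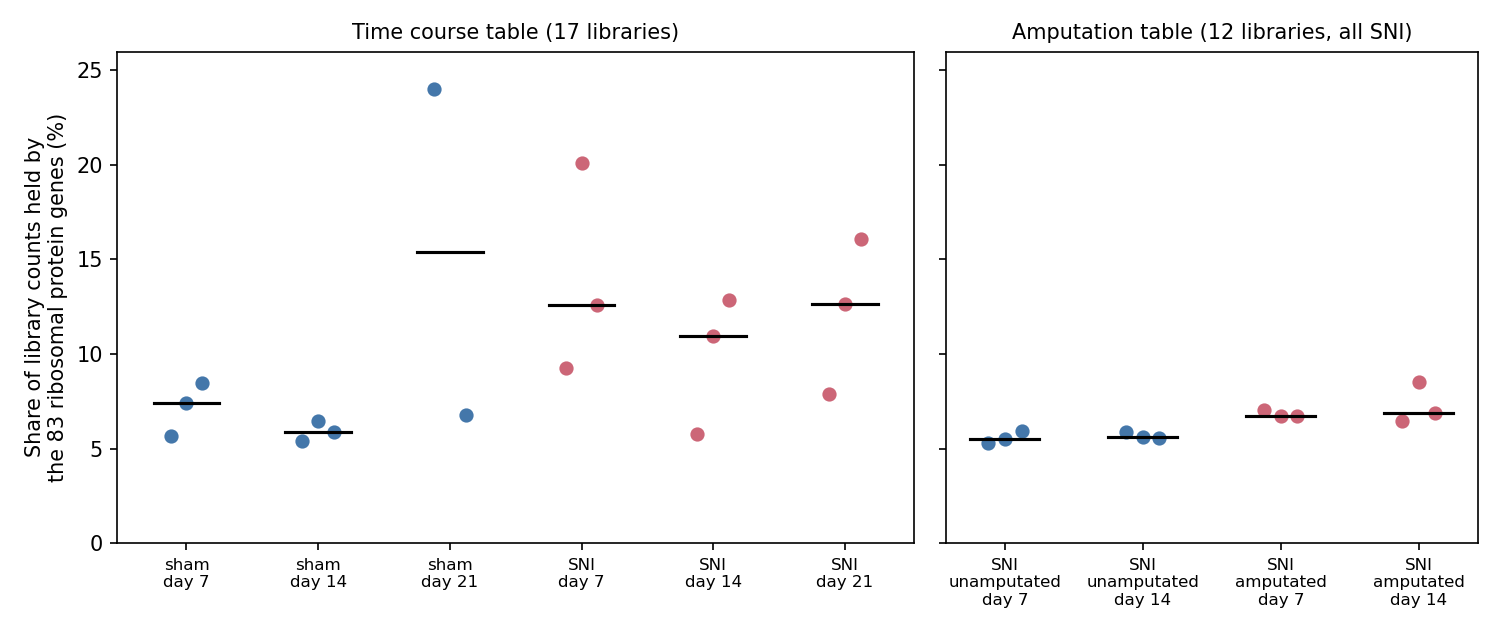
Share of each library's counts held by the 83 ribosomal protein genes, in percent, with 1 point per library and a line at the group median; blue marks sham or unamputated digits and red SNI or SNI amputated digits. Sham and SNI overlap at days 14 and 21 and not at day 7, with sham day 21 replicate 1 at 24.0%, while the 6 amputated libraries lie above the 6 unamputated ones.

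The members rose and fell as one block from library to library. Over the 17 time course libraries, 82 of the 83 genes had a correlation above 0.9 with the mean of the others, and over the 12 amputation libraries 77 did. The share of all tested genes above 0.9 is not given here, so these counts do not set the members apart from other genes. Their median SD of log2 CPM over the time course libraries was 0.86, against 0.51 for all tested genes, and fell to 0.12 once each library's member mean was taken away. In the amputation table these values were 0.21, 0.23 and 0.05. Among the members nearest to the block in the time course were Rpl14 (SD 0.03 around the member mean) and Rpl18 (0.03). In the amputation table the nearest were Rps13 (0.02), Rplp2 (0.02) and Rpl19 (0.02). Among the genes outside the naming rule nearest to the member mean were Fau (r = 0.999) and the elongation factor gene Eef1a1 (0.999) in the time course table, followed by Atp5h, Tomm7 and Atox1 (each 0.998), and Eef1a1 (0.991), Fau (0.991), Eef1b2 (0.989) and Atp5c1 (0.988) in the amputation table. These correlations are over libraries that share a tissue and a scaling, and describe likeness only.

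The block followed a property of the whole library. The first principal component of all tested genes without the members held 63.5% of the variance in the time course table, and the member mean had r = 0.991 with it (Spearman 0.985, 0.992 with group means removed, 0.989 without the 2 farthest libraries). Per library, the slope of log2 CPM on transcript length over the other genes, taken as deviation from each gene's mean, ran from 0.41 per doubling of length in sham replicate 1 at day 7 to -0.75 in sham replicate 1 at day 21. The member mean had r = -0.991 with this slope (0.990 with the level of 1334 short, expressed genes outside the members). The members are short, with a median annotated length of 774 bases against 2587 for tested genes. The total count did not follow the member mean (r = -0.17). In the amputation table the component held 22.1% of the variance, with r = 0.922, or 0.720 with group means removed. The slope ran from 0.07 to -0.15, with r = -0.889, -0.932 with group means removed and -0.679 without the 2 farthest libraries. Among the amputation libraries the slopes of amputated and unamputated digits overlapped at day 7 (-0.03, 0.03 and 0.03 against 0.05, 0.07 and -0.02) and did not at day 14 (-0.03, -0.15 and -0.03 against 0.00, 0.03 and 0.03). RNA quality values were not in the labels used here, and the part of RNA quality in these slopes was not tested.

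**Figure D2:**
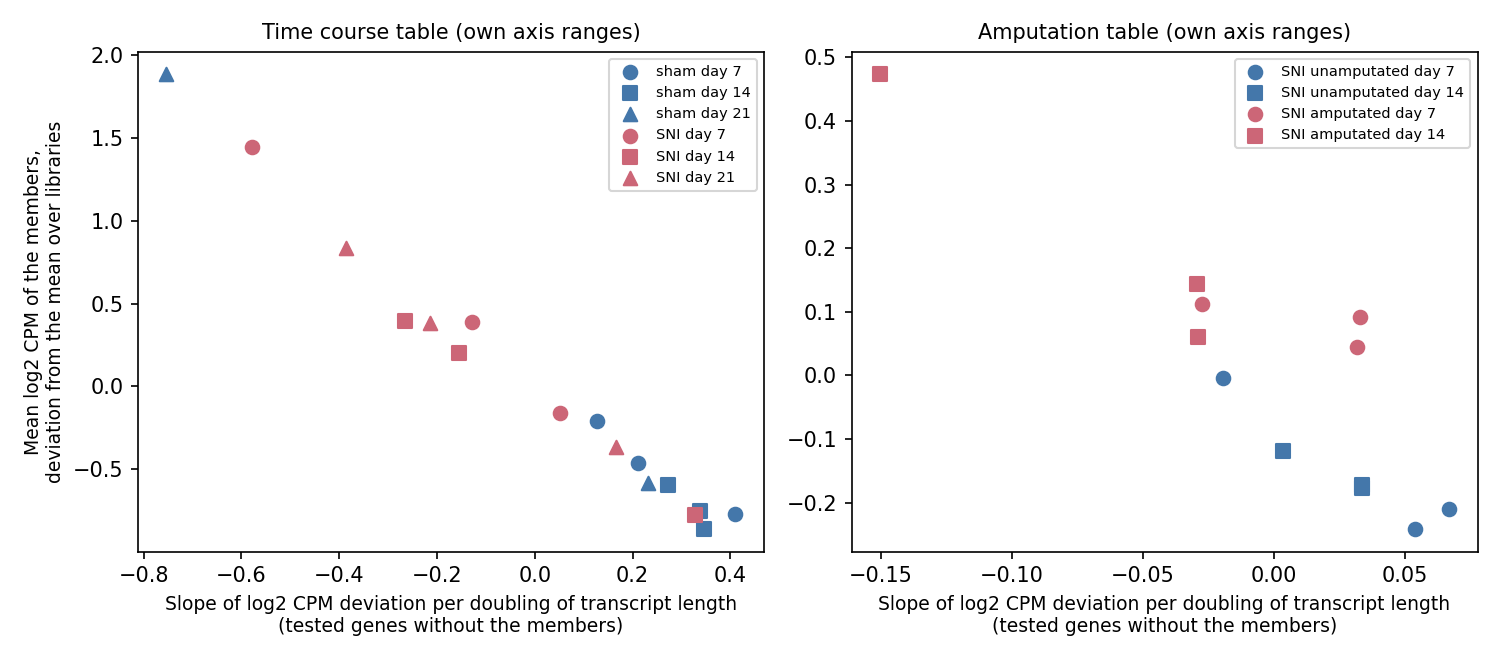
Mean log2 CPM of the 83 members, as deviation from the mean over libraries, against the slope of log2 CPM on transcript length over all other tested genes, with 1 point per library and separate axis ranges in the panels. In the time course (r = -0.991) the points of all groups fall along a common line; in the amputation table amputated digits lie above unamputated digits of like slope.

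In the nerve-injured digits, amputation went with higher ribosomal protein mRNA. Averaged over both days, 77 of 83 members were called higher in amputated digits and none lower by the quasi-likelihood test of edgeR at an adjusted p under 0.05, against 5.71% of all 17475 genes called higher. The median log2 fold change of the members was 0.32, against 0.01 over all tested genes, and 63 members had no overlap between amputated and unamputated libraries at either day, where 7.71% of all genes had none, in the same direction at both. At day 7 none of the 83 were called (background 0.601% higher) although 81 had a positive fold change and 48 an unadjusted p under 0.05, and the median was 0.24. At that day 63 did not overlap, against 19.2% of all genes. At day 14, 23 were called higher (background 1.32%), 80 of 83 did not overlap (32.6% of all genes did not), and the median was 0.40. The difference between days was called for no member and no gene in edgeR (background 0%); 1 member had an unadjusted p under 0.05, and neither DESeq2 nor limma voom called a member. At day 7 limma voom called 7 members higher, beside 1.01% of all genes, and DESeq2 none. Over both days, the changes that were called ran from 0.21 to 0.44 on the log2 scale.

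Rps20, which encodes a protein of the head of the small subunit, had the largest rise. It stood at 525, 521 and 666 CPM in unamputated digits at day 7 and 543, 537 and 561 at day 14, and at 714, 724 and 730 in amputated digits at day 7 and 698, 939 and 745 at day 14. Every amputated library lay above every unamputated one. Its log2 fold change was 0.44 (SE 0.08, adjusted p = 0.00834 by edgeR) over both days and 0.54 (SE 0.11, adjusted p = 0.0388) at day 14. Rps19, whose human form is the gene most often mutated in Diamond-Blackfan anaemia, was at 490, 498 and 598 then 532, 528 and 545 CPM in unamputated digits and at 685, 676 and 646 then 647, 902 and 716 CPM in amputated digits, again without overlap. Its log2 fold change was 0.42 (SE 0.08, adjusted p = 0.00938). By log2 fold change, next in size were Rps14 (0.42), Rps16 (0.40), Rpl5 (0.40), Rps21 (0.40), Rps27 (0.40), Rpl39 (0.40), Rps15 (0.40) and Rps28 (0.39), so 8 of the 10 largest rises were small subunit genes. Rpl5, which with Rpl11 and the 5S RNA restrains Mdm2, rose by 0.40 (SE 0.10, adjusted p = 0.0236), and Rpl11 by 0.30 (SE 0.08, adjusted p = 0.0339). At day 14 the largest called log2 fold changes after that of Rps20 were those of Rps19 (0.50), Rps27 (0.50), Rps28 (0.48), Rps21 (0.47), Rplp0 (0.47), Rpl37a (0.46), Rps18 (0.46), Rplp1 (0.45) and Rps9 (0.45), with adjusted p between 0.0413 and 0.0488. At day 7 the smallest p were those of Rps21 (0.33, adjusted p = 0.156), Rps19 (0.34, adjusted p = 0.177) and Rps24 (0.35, adjusted p = 0.184), none called.

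The medians of the subunits were close. Leaving out the paralogs and Rps19bp1, 30 of 31 small subunit genes were called higher, with a median log2 fold change of 0.36 over the 31, and 42 of 43 large subunit genes, with a median of 0.31 over the 43. All 3 stalk genes rose: Rplp0 by 0.38, Rplp1 by 0.33 and Rplp2 by 0.31. Rplp1 was between 1159 and 1362 CPM in the 6 unamputated libraries and between 1397 and 1942 in the 6 amputated ones. The 9 members on the list of Diamond-Blackfan anaemia genes used here all rose, with a median of 0.32, the same as the members as a whole. Among the paralogs and relatives only 2 of 6 were called, Rps27l (0.25, adjusted p = 0.0366 by edgeR) and Rpl22l1 (0.28, adjusted p = 0.0376). The 4 others were Rpl36al (0.17, adjusted p = 0.150), Rps19bp1 (0.05, adjusted p = 0.734), Rpl7l1 (0.01, adjusted p = 0.966) and Rps4l (-0.16, adjusted p = 0.587). The 2 true subunit genes not called were Rps2 (0.23, adjusted p = 0.0605) and Rpl18 (0.26, adjusted p = 0.0542), chosen for naming after their values were seen.

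**Figure D3:**
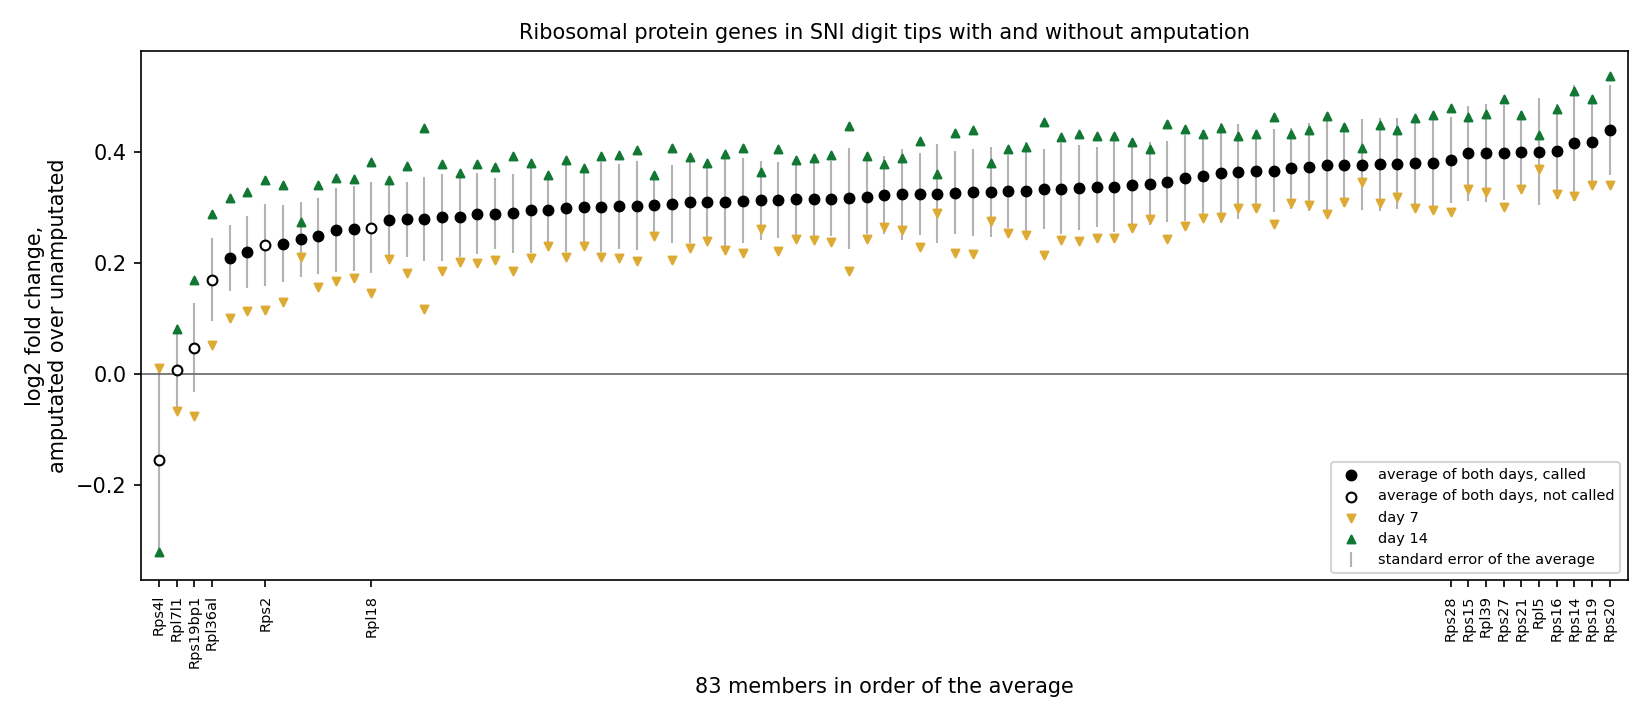
Log2 fold change of amputated over unamputated digits for each of the 83 members, ordered by the average over days, with its standard error as a bar and day 7 and day 14 as triangles; filled circles were called, and names are given for the members not called and the 10 largest. Most averages lie between 0.2 and 0.44, with Rps4l, Rpl7l1 and Rps19bp1 at the left end.

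Other TOP mRNAs moved the same way in this comparison. Of 19 genes of that list, 12 were called higher and none lower, with a median of 0.21. They included Eef1b2 (0.35, adjusted p = 0.0182 by edgeR), Rack1 (0.34), Tpt1 (0.33), Fau (0.33), Eef1a1 (0.32) and Eef2 (0.31, adjusted p = 0.00796), while Naca (0.14) and Btf3 (0.12), subunits of the nascent chain complex, were not called. Of 29 genes that build ribosomes, none were called higher and 5 were called lower, where 6.08% of all genes were, with a median of -0.13. Those that fell were Gnl3 (-0.46, adjusted p = 0.0032), Nop56 (-0.39, adjusted p = 0.00472), Nolc1 (-0.35), Tsr1 (-0.37) and Nop2 (-0.30), all of nucleolar or pre-ribosomal particles. The nucleolar chaperone gene Npm1 was at 0.20 (adjusted p = 0.0601). Of 14 growth control genes, Rps6kb2 (-0.23, adjusted p = 0.0397) and Rptor (-0.29, adjusted p = 0.0484) fell and Mtor (-0.10), Larp1 (-0.17) and Myc (0.16) were not called. Mitochondrial ribosomal protein genes, which serve a separate ribosome, had 8 of 78 called higher with a median of 0.11, and nuclear genes of the respiratory chain 15 of 77 with a median of 0.20.

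Some cell type markers were also called between amputated and unamputated digits over both days, where 5.71% of all genes were called higher and 6.08% lower. Differentiated epidermis genes had 5 of 8 called lower, with a summed level of 63059 to 74668 CPM in unamputated and 45701 to 56308 CPM in amputated digits. Schwann cell genes had 4 of 7 called lower, with 354 to 455 CPM against 133 to 263. Endothelial genes had 3 of 6 called higher, with 111 to 167 CPM against 148 to 220, and bone genes 2 of 8 called higher, with 67.8 to 162 against 126 to 453. Erythroid genes had 1 of 6 called higher, with 83.4 to 210 CPM against 99.9 to 407, and connective tissue genes 1 of 7, Lum, with 3644 to 5619 CPM against 3658 to 16758. The median summed level of the connective tissue genes at day 14 was 15589 CPM in amputated and 4796 CPM in unamputated digits. The ranges overlapped there, at 4322 to 16758 and 4001 to 5101 CPM. At day 7 the medians were 3818 CPM in amputated and 4576 CPM in unamputated digits. Basal keratinocyte genes had 1 of 7 called higher, macrophage genes 1 of 10 higher and 1 lower, and neutrophil genes 1 of 10 lower. Of 10 proliferation genes 1 was called, Mki67, which fell by 0.78. No summed level of these lists was at 0, and their part in the members' rise was not tested. The length slope moved with the day 14 groups as given above: with an offset for length the members' median was 0.20 over both days, with 62 called, and 0.21 at day 14, with 2 called. Without amputated replicate 2 at day 14, which had the highest share, the median at day 14 was 0.27 and none were called, and over both days 0.26 with 69 called. Leaving out unamputated replicate 1 or 2 at day 7, or 2 or 3 at day 14, left 30, 36, 41 and 41 called over both days. At day 14 none were called without unamputated replicate 1 or 2 at day 7, any unamputated replicate at day 14, amputated replicate 2 at day 7 or amputated replicate 3 at day 14. The count there was 3 without amputated replicate 3 at day 7 and 35 without amputated replicate 1 at day 7. It was 56 without unamputated replicate 3 at day 7 or amputated replicate 1 at day 14. The share of all genes called with the offset or with a library left out is not given here.

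Between day 7 and day 14 no member was called in amputated digits (background 0.607%; 2 at an unadjusted p under 0.05; median 0.16) or in unamputated digits (background 0.303%; 0 at an unadjusted p under 0.05; median -0.01). Rpl24, a large subunit protein that bridges to the small subunit, and Rpl29 had the smallest p in amputated digits, with log2 fold changes of 0.21 and 0.18 (adjusted p = 0.348 and 0.370 by edgeR). In unamputated digits these were Rpl41, at -0.11, Rps4l, at 0.14, and Rps20, at -0.06, all with an adjusted p of 1.00.

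In the time course no member was called in SNI against sham by edgeR at any day or over all days, nor was any other gene (background 0% in each of these comparisons); DESeq2 also called no member, with 53 other genes at day 7. All 83 members lay higher in SNI digits at day 7, with a median log2 fold change of 1.25 against 0.02 for all genes and 27 at an unadjusted p under 0.05. Of these, 66 had no overlap between the SNI and sham libraries, where 37.4% of all genes had none. At day 14 all 83 were again higher, with a median of 0.79 and none at an unadjusted p under 0.05. At day 21, 82 of 83 were lower, with a median of -0.85, and none had an unadjusted p under 0.05. Over all days the median was 0.39 (1.02 without sham replicate 1 at day 21, 0.13 without its replicate 2 and 0.20 without SNI replicate 2 at day 7) with 2 members at an unadjusted p under 0.05. The difference between days was called for no member, with 5 at an unadjusted p under 0.05. By limma voom with sample quality weights, 82 members were called at day 7 and at day 14, where it called 48.1% and 54.2% of all genes. The weights of sham replicates 1 to 3 were 0.81, 7.32 and 1.29 at day 7 and 2.61, 3.41 and 2.45 at day 14. Those of SNI replicates were 0.60, 0.17 and 4.71, then 0.23, 2.79 and 0.76. At day 7 these calls thus leaned mostly on sham replicate 2 and SNI replicate 3, and at day 14 on SNI replicate 2 among SNI libraries.

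Rps29, a small subunit protein with a zinc finger, had the smallest p at day 7 and at day 14. It was at 406, 491 and 550 CPM in sham and 616, 1334 and 858 in SNI digits at day 7, without overlap, a log2 fold change of 0.96 (SE 0.37, adjusted p = 0.301 by edgeR). At day 14 it was at 386, 433 and 415 in sham and 409, 696 and 775 in SNI digits, with overlap (0.61, SE 0.37, adjusted p = 0.578). Rps26, which lines the mRNA exit channel, was at 483, 570 and 640 CPM in sham and 652, 1354 and 947 in SNI digits at day 7 (0.80, SE 0.31, adjusted p = 0.301). Rplp1 was at 1153, 1478 and 1743 in sham and 1863, 6629 and 2891 in SNI digits at day 7, a larger fold change (1.38) with a larger SE (0.63). Its value of 9503 in sham replicate 1 at day 21 was the highest of all libraries, beside 1379 in sham replicate 2 and 1694, 2921 and 4268 in SNI digits.

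Day 21 turned on 1 sham library. Without sham replicate 1 at day 21 the members' median in SNI against sham was 0.99 with all 83 positive, and without replicate 2 it was -1.63 with none positive. None were called either way in these fits of SNI against sham at day 21. The same library set the change over time in sham digits. Against day 7 the members' median at day 21 was 1.70 (72 at an unadjusted p under 0.05, 0 called, background 0%), -0.12 without replicate 1 and 2.49 without replicate 2. With either left out, sham at day 21 is a single library that is assumed to vary like the other groups. On that footing 82 members were called higher without replicate 2, where 26.4% of all genes were. On the same footing the test of a difference in SNI effect between days called 70 members, beside 20.6% of all genes. Sham digits at day 14 against day 7 had a median of -0.28, SNI digits at day 14 against day 7 one of -0.73 and SNI digits at day 21 against day 7 one of -0.37, with none called in any of them by edgeR, DESeq2 or limma voom (background 0% in each) and 0 members at an unadjusted p under 0.05. An offset for transcript length brought the medians of SNI against sham from 1.25, 0.79 and -0.85 to 0.43, 0.25 and -0.19 at days 7, 14 and 21.

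**Figure D4:**
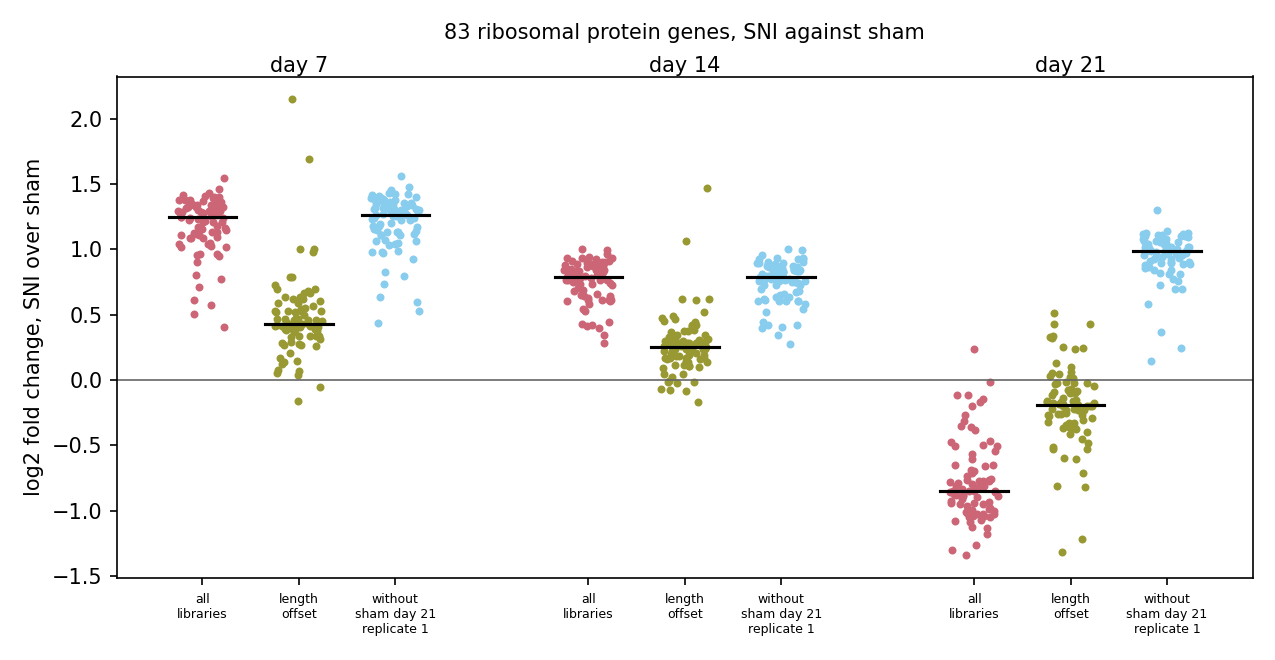
Log2 fold change of SNI over sham for each of the 83 members at days 7, 14 and 21, with all libraries, with an offset for transcript length, and without sham replicate 1 at day 21; each point is a gene and each line a median. At day 21 the median moves from -0.85 to 0.99 when that library is left out, and the offset brings every day closer to 0.

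Marker lists moved with the members along the time course libraries. Neutrophil genes had a summed level of 40.9 to 56.4 CPM in sham and 97.8 to 11548 CPM in SNI digits at day 7. The median of these SNI digits was 157 CPM, with SNI replicate 2, second highest in member share, at the top. Sham digits at day 21, which include the library of highest member share, had 57.4 to 170 CPM. Differentiated epidermis genes ran the other way, from 61019 to 67028 CPM in sham and 30743 to 48894 CPM in SNI digits at day 7, and down to 16937 CPM in sham replicate 1 at day 21. Collagen gene Col1a1 was at 99.0 CPM in sham replicate 1 at day 21 and 51.6 CPM in SNI replicate 2 at day 7, the lowest 2 of the time course, beside 564 to 12377 CPM in the others. Mitochondrial ribosomal protein genes (r = 0.996 with the member mean over 17 libraries) and respiratory chain genes (0.998) followed the members. Basal keratinocyte (-0.914) and growth control genes (-0.963) ran against them as lists, by their mean log2 CPM. The abundant basal keratin gene Krt14 did not: it was highest in SNI replicate 2 at day 7 (9470 CPM) and sham replicate 1 at day 21 (6412 CPM), beside 3463 to 5470 CPM in the others. Krt5, its partner, was highest in SNI replicate 2 at day 7 (5665 CPM) and at 4662 CPM in sham replicate 1 at day 21. Ribosome biogenesis genes as a list also ran against the members, less closely (-0.526). The part of these cell types in the members' levels was not tested. Without both libraries with a normalization factor under 0.8, sham replicate 1 at day 21 and SNI replicate 2 at day 7, the members' median in SNI against sham was 0.65 at day 7, 0.79 at day 14 and 0.99 at day 21, with none called.

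A few members departed from the block. Rps4l, the rarely read paralog of Rps4x, had r = 0.759 with the mean of the others in the time course table and -0.199 in the amputation table. It was at 14.8, 22.9 and 27.5 CPM at day 7 and 24.5, 30.3 and 17.1 CPM at day 14 in unamputated digits and at 19.8, 18.3 and 27.6 CPM, then 20.7, 17.4 and 19.5 CPM, in amputated digits, so its groups overlapped. Its level per kilobase was the second lowest of the family. Rpl7l1, a nucleolar relative of Rpl7, was flat in the amputation table at 56.1 to 84.5 CPM (r = 0.196) and had the smallest SD of log2 CPM in the time course, 0.41. Rps19bp1 was at 12.4 to 16.9 CPM in the amputation table and r = 0.553. Among subunit genes the time course SD was smallest for Rpl4 (0.44), Rps26 (0.46) and Rpl29 (0.51) and largest for Rps14 (1.10), Rps3 (1.00), Rps12 (0.98), Rps7 (0.98) and Rpl13a (0.98). Rps3 forms part of the mRNA entry of the small subunit, and Rpl4 reaches into the exit tunnel of the large one. Rps26 reached 911 CPM in sham replicate 1 at day 21 and 1354 CPM in SNI replicate 2 at day 7, while Rps14 reached 11131 and 6000 CPM in the same libraries, so these genes ordered the pair differently. In the amputation table Rps26 and Rpl4 lay near the block again, with SDs of 0.04 and 0.06 around the member mean, and Rpl5 (0.11) and Rps14 (0.10) followed the paralogs in size.

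**Figure D5:**
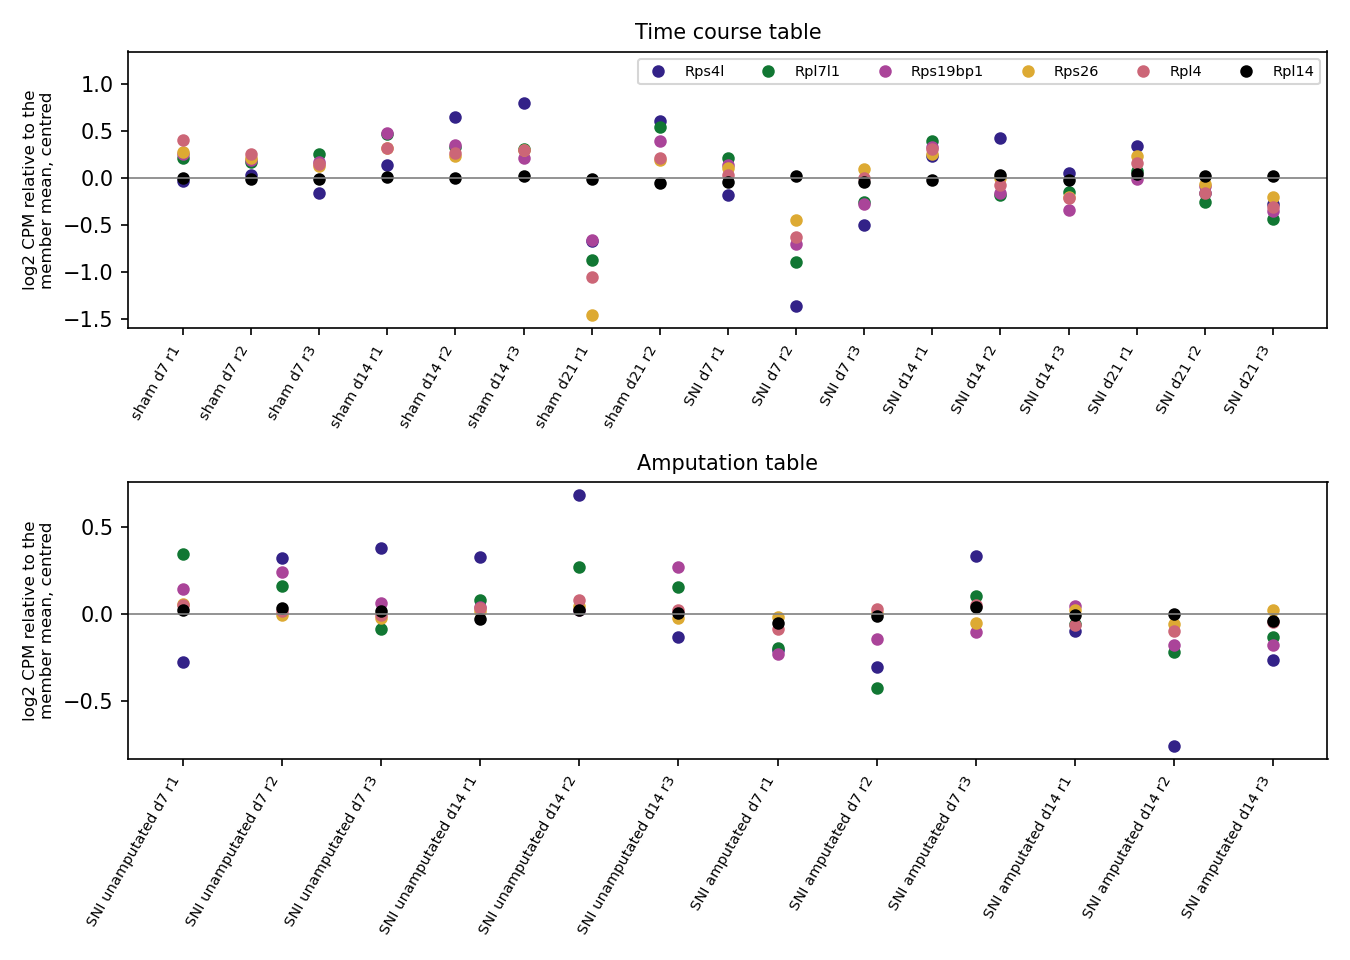
Log2 CPM of Rps4l, Rpl7l1, Rps19bp1, Rps26, Rpl4 and, for comparison, Rpl14 relative to the member mean of the same library, centred over the libraries of each table, with 1 point per library. Rpl14 stays near 0 (SD 0.03), while the other 5 drop in sham replicate 1 at day 21 and SNI replicate 2 at day 7.

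Scaled to the summed counts of the members, a setting added after the data were seen, 3 members were called in amputated against unamputated digits over both days, all lower: Rpl7l1 (-0.32, adjusted p = 0.0218 by edgeR), Rps19bp1 (-0.28, adjusted p = 0.0254) and Rpl36al (-0.15, adjusted p = 0.0415). Of the other members none was called on that scale in this comparison, and no member in the other 14.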

How the data were processed

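RNA-seq counts came from 29 libraries of mouse digit tissue. Both deposited tables are the authors' raw counts, from poly(A), strand-specific libraries per the labels' protocols. The submitters' processing notes name GRCm39. For alignment and counting, tools were not given in the sources used here. GENCODE M21 and RefSeq, both on GRCm38, gave names, transcript lengths and promoter windows only. Each table was fitted apart with edgeR 4.0.16 (R 4.3.3): TMM scaling, filterByExpr (16084 and 17475 genes kept), robust quasi-likelihood tests and Benjamini-Hochberg adjustment over all tested genes at 0.05. The model was a mean per group, checked on simulated counts. These were drawn independently for each gene, without the shared library axis or the length slope, so the check does not cover them. Printed CPM per library use TMM-scaled totals. Mean CPM per gene, summed list levels and shares use the total count. DESeq2 1.42.0 and limma 3.58.1 served as alternatives. The labels call the libraries biological replicates.

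The members and lists were chosen with earlier results of these data known. Named members were the 10 largest called changes per comparison without overlap, or the 3 smallest p where fewer than 3 were called, the 5 highest and lowest in level and in spread, those nearest the threshold, and paralog pairs; of other lists, the 2 smallest p per comparison. Some other genes of these lists were named for their role, and a few results are not reported here.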

Additional observations from a re-analysis of the deposited data

How the results depend on the processing

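Across RLE size factors, library totals, TMM without the members, no filter, DESeq2, limma voom, the replicate block and a length offset, 58 to 79 members were called in amputated against unamputated digits over both days, and 30 to 79 with a library left out. Scaled to the members' own sum, added after seeing the data, 3 were called there and 0 at day 14, and the members' medians were near 0: -0.0070 over both days, -0.0039 at day 7 and -0.0063 at day 14, 0.0051 for the difference between days, 0.0049 for amputated digits over time, 0.0324, 0.0093 and 0.0088 for SNI against sham at days 7, 14 and 21, and 0.0144 for sham at day 21 against day 7; the called members Rpl11 (-0.0271), Rpl22 (-0.0328), Rpl22l1 (-0.0374), Rpl36a (-0.0073), Rplp2 (-0.0204) and Rps27l (-0.0783) turned below 0 over both days, as did Rpl36a (-0.0106) and Rplp2 (-0.0008) at day 14, since that scale sets members against each other. At day 14 the count called was 49 with no filter and 77 by DESeq2 and by limma voom. It was 2 with the length offset, 1 with only the groups compared, and 0 to 56 with a library left out. At day 7 it was 7 by limma voom, beside 1.01% of all genes called higher, and 0 to 4 with a library left out. For the other counts of the amputation comparisons in this section, the share of all genes called is not given. For the counts of SNI against sham that follow, limma voom called 48.1% and 54.2% of all genes. In the time course limma voom called 82 members at day 7 and at day 14 of SNI against sham; with a library left out the counts ran from 0 to 70 for the difference between days and 0 to 82 for sham at day 21 against day 7, where the single sham library left at day 21 is assumed to vary like the other groups.

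Medians moved by more than the spread within groups under the length offset: to 0.43 for SNI against sham at day 7, 0.49 for sham at day 21 against day 7, 0.21 for amputation at day 14, 0.0248 for its difference between days (0.0243 by limma voom) and 0.0307 for amputated digits over time. Without both libraries of low normalization factor they were 0.99 for SNI against sham at day 21 and -0.12 for sham at day 21 against day 7. With a library left out the medians ran from -1.63 to 0.99 and from -0.12 to 2.49 in these comparisons, from 0.27 to 0.46 for amputation at day 14, from 0.0358 to 0.23 for its difference between days and from 0.0219 to 0.2181 for amputated digits over time. The cause was not tested. Leaving the 100 highest genes outside the members out of the total raised the mean share to 9.55 and 7.93% in sham digits at days 7 and 14, 7.55% and 7.54% in unamputated and 8.98 and 9.68% in amputated digits; adding pseudogenes moved no group by its SD. The component followed the members less closely in the amputation table with group means removed (0.720).

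Whether replicate numbers pair the libraries was not settled. The correlations of same-numbered libraries were not all above 0.1, but this rule cannot exclude pairing within some groups. In the time course same-numbered libraries had correlations from -0.79 to 0.77, and differently numbered ones from -0.75 to 0.79. In the amputation table same-numbered libraries had correlations from -0.20 to 0.14, and differently numbered ones from -0.13 to 0.18. With the replicate block 58 members were called for amputation over both days and 0 at day 14, and no member in any other comparison. A fit of only the groups compared was not run for averages and differences between days. Every member was read at a mean of over 10 CPM in both tables.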
